A study of Mus musculus with 12 samples.

Results

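The heat-inducible chaperones are 10 genes, Hspa1a, Hspa1b, Hsph1, Dnajb1, Hsp90aa1, Hspa8, Dnaja1, Hspb1, Chordc1 and Bag3, out of 19057 genes named on a mouse Illumina bead array. Every probe whose platform annotation gives 1 of these symbols was taken, 19 of 45281 probes. Of these, 11 probes of 8 genes were detected on at least 6 of 12 arrays and were kept among 17098 probes in all. The 8 other probes include every probe of Hspa1b and Dnaja1, so these 2 genes are described from values close to background. The arrays carried total RNA of whole hearts from male C57Bl/6 mice aged 8 weeks. The exercised group had run voluntarily on a wheel for 7 days (6 samples) and the sedentary group had no such exercise (6 samples). Samples carry replicate numbers 1 to 6 in both groups. Whether each is a different mouse is not given in the labels, so p-values cover only the spread between samples. The genes were chosen by their measured levels on these arrays, since Hspa1a on the array of exercised replicate 1 stood far above the other 11. All values that set replicate 1 apart, and the difference between the groups over all 12 arrays, are therefore given as a description, also where counts of calls over 12 arrays are printed, and nothing is read from them. For the members, tests are read only from the other 11 arrays.

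Heat shock proteins hold unfolded or partly folded proteins and help them to fold, to be rebuilt or to be degraded. In unstressed cells the transcription factor Hsf1 is held inactive in the presence of chaperones. When unfolded proteins accumulate after heat, ischaemia or other proteotoxic stress, Hsf1 forms trimers and binds heat shock elements, which are inverted repeats of the 5-base unit nGAAn, and transcription of the inducible chaperones rises quickly. In the heart the inducible Hsp70 protein is known for protecting muscle against ischaemic injury, and small heat shock proteins and Bag3 serve the turnover of damaged sarcomere proteins.

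Promoter windows from 250 bases before to 50 bases after a transcription start were available for 8 of the 10 genes, in 12 windows, from RefSeq on the build GRCm38.p6. They were searched on both strands for a pair of inverted heat shock units, GAANNTTC or TTCNNGAA, and for the extended forms GAANNTTCNNGAA or TTCNNGAANNTTC, which contain the shorter ones. A pair was found in 8 of the 12 windows and in 7 of the 8 genes, whereas 15.1% of 32851 windows of the same length over all genes hold one. The extended form was found in 3 windows, of Hsph1 and Chordc1, and in 0.603% of all windows. A match of letters is a description and does not show that a factor binds there. Stretches from 120 bases before to 30 bases after the start are shown for 6 genes, because these are the windows in which the highest genes on replicate 1 can be compared; capitals mark the matched units.
Hspa1a, chr17:34972127-34972276, minus strand: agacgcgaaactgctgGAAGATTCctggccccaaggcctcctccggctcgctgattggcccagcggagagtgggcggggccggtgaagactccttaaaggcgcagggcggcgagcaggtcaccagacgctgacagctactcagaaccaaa
Hspa1b, chr17:34959209-34959358, minus strand: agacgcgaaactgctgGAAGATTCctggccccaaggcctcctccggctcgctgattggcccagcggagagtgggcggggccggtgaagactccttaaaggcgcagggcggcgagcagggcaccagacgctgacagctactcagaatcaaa
Hsph1, start site 2, chr5:149636286-149636435, minus strand: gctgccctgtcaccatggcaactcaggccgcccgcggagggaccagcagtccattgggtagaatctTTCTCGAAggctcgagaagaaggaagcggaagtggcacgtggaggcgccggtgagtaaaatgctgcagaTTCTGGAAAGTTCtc
Chordc1, chr9:18292147-18292296, plus strand: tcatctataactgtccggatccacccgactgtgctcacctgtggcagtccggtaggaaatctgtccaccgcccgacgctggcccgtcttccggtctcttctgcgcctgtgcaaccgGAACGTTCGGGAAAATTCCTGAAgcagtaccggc
Hspb1, chr5:135887799-135887948, plus strand: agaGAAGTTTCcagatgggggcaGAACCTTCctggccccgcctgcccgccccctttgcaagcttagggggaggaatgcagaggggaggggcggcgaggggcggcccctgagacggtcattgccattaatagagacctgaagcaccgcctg
Dnajb1, chr8:83608055-83608204, plus strand: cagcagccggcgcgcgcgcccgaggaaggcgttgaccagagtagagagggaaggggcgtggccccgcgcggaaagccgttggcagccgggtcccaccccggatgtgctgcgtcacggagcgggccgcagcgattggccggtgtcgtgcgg
The windows of Hspa1a and Hspa1b, neighbouring copies on chromosome 17, differ at 4 of 300 bases, and both hold the pair at the same place. The stretch of Dnajb1 holds no match in these letters, which says nothing of the factor outside this window.

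Some arrays stood apart from others of their group. Median raw signals were between 130.5 and 138.6 on 4 arrays (exercised replicates 2, 3 and 6 and sedentary replicate 2) and between 48.6 and 53.3 on the other 8, which included exercised replicate 1. Between 16619 and 18708 probes were detected per array, and precision is limited by how many arrays there are. The heart label was borne out by 9 cardiomyocyte markers, whose mean log2 intensity ranged from 14.13 to 14.27 in exercised and from 14.11 to 14.35 in sedentary hearts. The mean of 8 measured hepatocyte markers was 10.88, 12.34 and 13.07 on exercised replicates 1, 5 and 6, against 6.77 to 7.85 on the other exercised arrays and 6.27 to 8.46 on the sedentary arrays. The mean of 5 measured atrial markers ranged from 11.31 to 13.30 in exercised and from 10.37 to 13.49 in sedentary hearts. It was 11.47 on exercised replicate 1, 11.31 on exercised replicate 2 and 11.42 on sedentary replicate 6. Sedentary replicates 1 and 5 were lower still, at 10.37 and 11.29. The part of atrial tissue in the member values was not tested. In bulk tissue, fewer cells of a type and less RNA per cell cannot be told apart.

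Hspa1a encodes the main stress-induced cytosolic Hsp70. Its detected probe was at 12.18, 8.91, 7.23, 6.34, 5.84 and 6.47 on exercised replicates 1 to 6, against 7.91, 6.74, 7.04, 8.23, 6.64 and 9.49 on sedentary replicates 1 to 6 (log2 intensity after background correction and quantile normalization). Exercised replicate 1 alone was above 10, sedentary replicate 6 came next, and exercised replicates 4, 5 and 6 lay below the lowest sedentary array. Replicate 1 lay 4.84 above the mean of the other 11 arrays, a 28.55-fold difference, while the standard deviation among those 11 was 1.15. It lay 2.70, or 6.48-fold, above sedentary replicate 6. Before any normalization the signal was 3043.8 in exercised replicate 1, against 75.4 to 842.2 on the other arrays. In the authors' deposited log2 values the same probe was at 12, against 7.26 to 9.40 on the other 11.

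The dim probes of Hspa1a and Hspa1b were also highest on exercised replicate 1. Hspa1b encodes a near-identical protein, and probes of the pair may take up each other's transcripts, so the 2 genes cannot be separated with certainty. A Hspa1b probe was at 7.96 on exercised replicate 1, against 4.23 to 5.17 on the other 11 arrays, and was detected on 3 arrays. The second Hspa1b probe was at 7.30, against 4.36 to 5.54, and was detected on 2. The dim Hspa1a probes were at 7.48 and 7.09 on replicate 1, against 4.37 to 5.11 and 4.23 to 4.91 on the other 11. They were detected on 2 arrays and 1 array. All 5 probes of the pair were thus highest on exercised replicate 1, and for the 4 dim ones the levels elsewhere are largely bounds set by background.

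**Figure D1:**
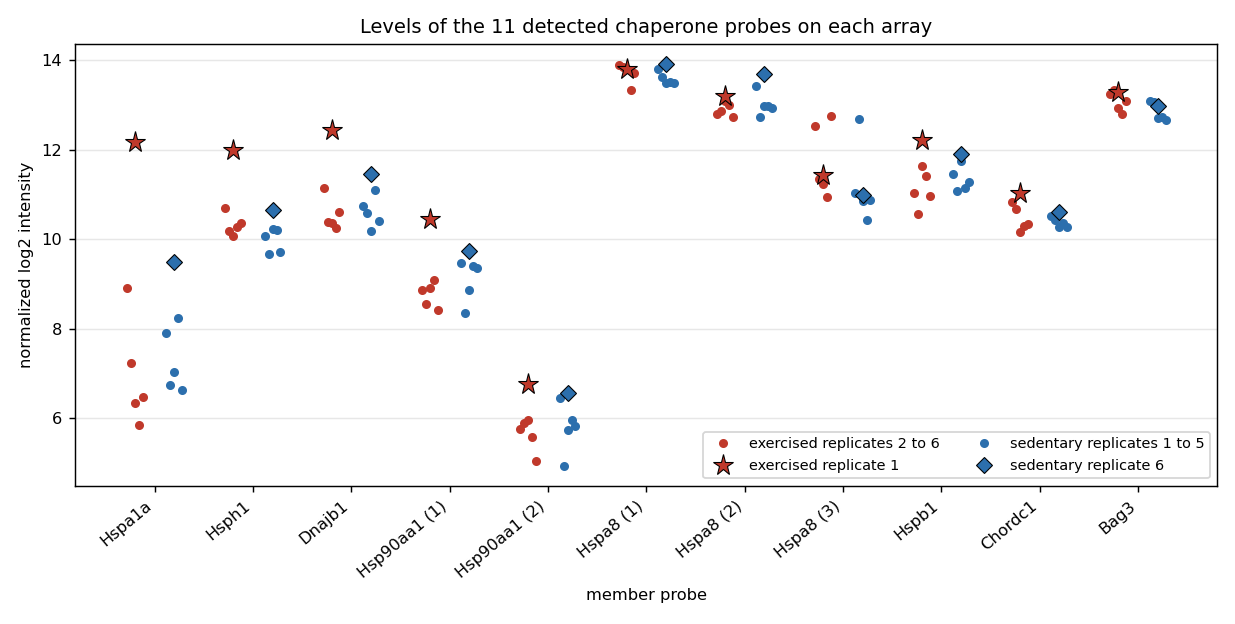
Log2 intensity of the 11 kept member probes on each array, exercised in red and sedentary in blue, each point 1 array; the star is exercised replicate 1, the diamond is sedentary replicate 6, and numbers in brackets order the probes of a gene by brightness. For Hspa1a the star stands at 12.18, above all other arrays, of which the highest is at 9.49; for Hspa8 and Bag3 it lies among the other points.

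Hsph1 encodes an Hsp110, a nucleotide exchange factor that lets Hsp70 release its client. It was at 12, 10.70, 10.19, 10.06, 10.26 and 10.35 on exercised replicates 1 to 6, against 10.06, 9.66, 10.22, 10.21, 9.72 and 10.64 on the sedentary arrays. Replicate 1 was 1.81 (3.51-fold) above the mean of the other 11 and 1.30 above the next array, exercised replicate 2. Dnajb1 encodes an Hsp40, the J-domain partner that delivers clients to Hsp70 and stimulates its ATPase. Its levels were 12.44, 11.14, 10.38, 10.37, 10.24 and 10.60 on the exercised arrays, against 10.73, 10.58, 10.17, 11.10, 10.40 and 11.46 on the sedentary arrays. Replicate 1 was 1.79 (3.45-fold) above the mean of the other 11, and sedentary replicate 6 was the next array, 0.98 below it. Dnaja1, another Hsp40, had 1 probe detected on 5 arrays, at 5.75 on replicate 1, against 4.39 to 4.84 on the other exercised and 4.88 to 5.63 on the sedentary arrays, and 1 probe detected on 0 arrays.

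Hsp90aa1 encodes the inducible cytosolic Hsp90, which matures kinases and steroid receptors. Its brighter probe was at 10.44, 8.87, 8.56, 8.90, 9.09 and 8.42 on exercised replicates 1 to 6, against 9.46, 8.34, 8.86, 9.41, 9.36 and 9.73 on the sedentary arrays. Replicate 1 was again the highest array, 1.44 (2.71-fold) above the mean of the other 11. The other 5 exercised arrays, at 8.42 to 9.09, lay within the sedentary range. This probe was at 8.34 to 8.87 on the 4 arrays of high background and 8.86 to 10.44 on the 8 of low background. The part of background in these values was not tested. The dimmer probe was at 6.76 on replicate 1, 5.05 to 5.97 on the other exercised and 4.94 to 6.56 on the sedentary arrays, and a further probe was detected on 0 arrays. Chordc1 encodes a zinc-binding cochaperone of Hsp90. It was at 11.04, 10.82, 10.68, 10.16, 10.30 and 10.33 on the exercised arrays, against 10.52, 10.42, 10.27, 10.35, 10.26 and 10.61 on the sedentary arrays. Replicate 1 was highest, 0.61 above the mean of the other 11, with exercised replicates 2 and 3 next.

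Hspb1 encodes the small heat shock protein Hsp27 (Hsp25 in mice), which holds unfolded proteins without using ATP and binds actin filaments. It was at 12.22, 11.03, 10.55, 11.63, 11.41 and 10.97 on the exercised arrays, against 11.45, 11.07, 11.74, 11.14, 11.28 and 11.91 on the sedentary arrays. Replicate 1 was 0.93 above the mean of the other 11. The level also followed the raw background, with 10.55 to 11.07 on the 4 arrays of high background and 11.14 to 12.22 on the 8 of low background, and the part of background in the values was not tested. A second Hspb1 probe was detected on 0 arrays.

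The constitutive Hsp70 gene and Bag3 did not share the pattern. Hspa8 encodes Hsc70, the Hsp70 that cells make without stress. Its brightest probe was at 13.79 on replicate 1, 13.32 to 13.88 on the other exercised and 13.49 to 13.91 on the sedentary arrays. Its second probe was at 13.20 on replicate 1, 12.72 to 13.08 on the other exercised and 12.72 to 13.68 on the sedentary arrays, with sedentary replicate 6 the highest. The second probe was at 12.72 to 12.87 on the arrays of high background and 12.93 to 13.68 on those of low background. The dimmest probe went the other way, at 11.35 to 12.74 on high background and 10.42 to 11.43 on low background. It so differed from the other 2 in its order of arrays, and the part of background was not tested. Bag3 encodes a cochaperone that links Hsp70 to selective autophagy in muscle. It was at 13.29, 13.24, 13.32, 12.92, 12.79 and 13.09 on the exercised arrays, against 13.09, 13.07, 12.71, 12.73, 12.67 and 12.97 on the sedentary arrays. Here replicate 1 was 0.32 above the mean of the other 11 and just below exercised replicate 3.

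Over the members as a group, 7 of the 11 kept probes, belonging to 6 of 8 genes, were highest on exercised replicate 1, and 4.82% of all kept probes were highest on that array. The members were chosen with this array in view, so nothing is read from that share. The median distance of the 11 probes above the mean of the other arrays was 0.93, against 0 over all 17098 probes. Ranked by the distance from replicate 1 to the next highest array, a ranking chosen after the values were seen, the first were Hspa1a (2.70), Hsph1 (1.30), Dnajb1 (0.98), Dedd2 (0.79) and Hsp90aa1 (0.71). A distance over 0.5 was found for 7 probes, of which 4 are members. Dedd2, which encodes a death-effector-domain protein and stands in the list of heat shock factors and other targets, was at 9.55 on replicate 1 and 8.25 to 8.76 on the other 11. The next genes in that ranking were Nle1 (0.68) and Zdhhc12 (0.59).

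**Figure D2:**
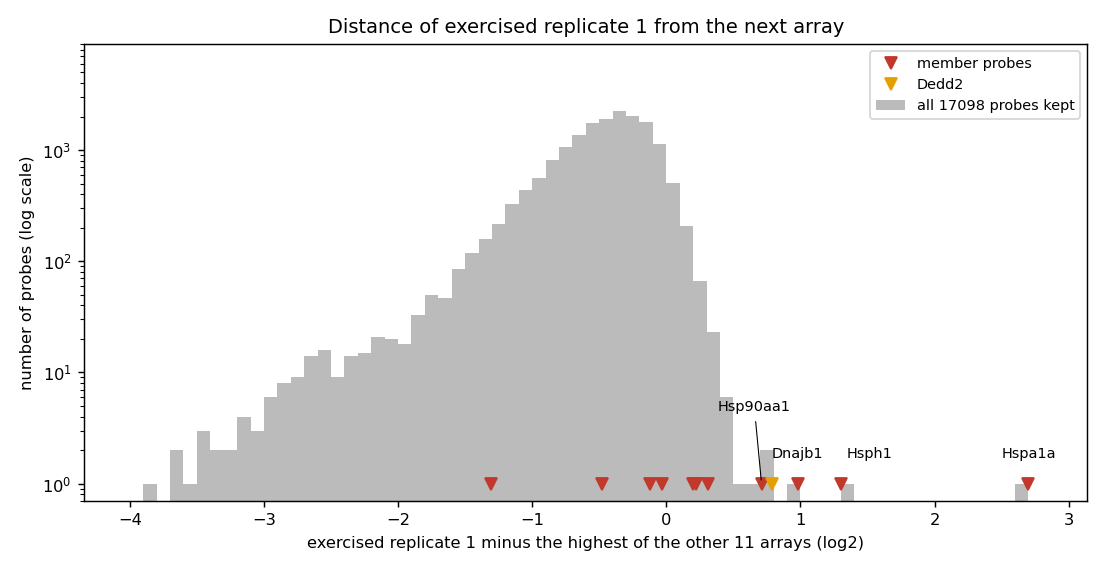
Number of kept probes (log axis) by the log2 level on exercised replicate 1 minus the highest of the other 11 arrays; triangles mark the 11 member probes and Dedd2. Most probes lie below 0, and Hspa1a, Hsph1, Dnajb1 and Hsp90aa1 lie at 2.70, 1.30, 0.98 and 0.71.

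The comparison of exercised with sedentary hearts asks which transcripts respond to a week of voluntary running. Over all 12 arrays Hspa1a averaged 7.83 ± 2.39 in exercised hearts, against 7.67 ± 1.1 in sedentary hearts (log2 intensity ± SD over 6 arrays each), a difference of 0.15 (SE 0.89). Without replicate 1 the exercised mean was 6.96 ± 1.20 (SD, n = 5) and the difference was -0.72 (SE 0.57). The 12-array difference also changed sign without exercised replicate 2 (-0.06), sedentary replicate 2 (-0.03) or sedentary replicate 5 (-0.05), so its direction is not settled. As a description of the same 12 arrays, limma called 0 of the 11 member probes at an adjusted p under 0.05, with 15 of 17098 probes (0.0877%) called in all; since the members were chosen on these arrays, nothing is read from that count.

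On the 11 arrays without exercised replicate 1, limma called 0 of the 11 kept member probes, against 8 of all 17098 probes (0.0468%). An unadjusted p under 0.05 in limma was found for 0 of the 11, against 2721 probes in all. With no filter it was found for 2 of the 19 member probes, against 4897 of 45281 probes, and 0 member probes were called. The lowest adjusted p among the members in limma was 0.3386, for the brighter Hsp90aa1 probe, which differed by -0.42 (SE 0.22) on the log2 scale. Bag3 differed by 0.20 (SE 0.12, adjusted p 0.3827 in limma) and Hspb1 by -0.32 (SE 0.20, adjusted p 0.398 in limma). Hsph1 averaged 10.31 ± 0.24 in exercised hearts (SD, n = 5) and 10.09 ± 0.36 in sedentary hearts (SD, n = 6), a difference of 0.23 (SE 0.17). Dnajb1 differed by -0.20 (SE 0.22) and Chordc1 by 0.05 (SE 0.13). The brightest Hspa8 probe differed by 0.07 (SE 0.12), the second by -0.22 (SE 0.15) and the dimmest by 0.62 (SE 0.40). The median difference over the 11 member probes was -0.20, against -0.03 over all probes, with 5 values above 0 and 6 below. With 1 probe per gene it was -0.07, against -0.04 over all genes. When sedentary replicate 6 was also left out, the median over the member probes was -0.05 and Hspa1a differed by -0.35. Of the 4 arrays of high background 3 are exercised, so the differences were also taken with a block for the background range, and separately among the 7 arrays of low background (2 exercised against 5 sedentary). With the block the brighter Hsp90aa1 probe differed by -0.14 (SE 0.17), Hspb1 by -0.07 (SE 0.15), the dimmest Hspa8 probe by 0.01 (SE 0.24) and Hspa1a by -0.89 (SE 0.62). Within the low-background arrays Hspa1a differed by -1.77 (SE 0.58), and its adjusted p in limma was 0.3817. It was the 1 member probe with an unadjusted p under 0.05 there. Of all 17098 probes 1692 had one, a share at which 1 of 11 is no result about the members. On these 11 arrays 0 of the 11 kept member probes separated the groups without overlap, and 1.44% of all kept probes did, a share at which 0 of 11 is no result about the members. The Dnaja1 probe detected on 5 arrays, which was not kept, did separate them. It was at 4.39 to 4.84 on the exercised and 4.88 to 5.63 on the sedentary arrays, values close to background. The misses of the adjusted threshold do not show that the groups were alike.

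**Figure D3:**
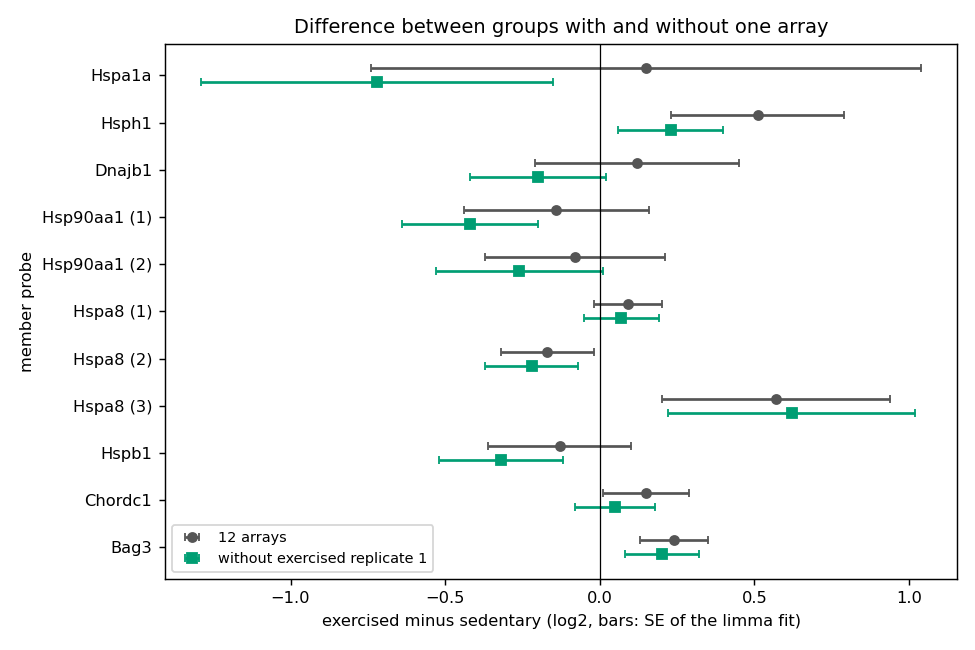
Exercised minus sedentary log2 difference of each kept member probe with its standard error, over 12 arrays and over the 11 arrays without exercised replicate 1. Hspa1a moves to -0.72 from 0.15 when that array is left out, and the values of Hspa8 and Bag3 move little.

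Sedentary replicate 6 was the second array on which these genes were high together. Its Hspa1a level of 9.49 was 2.18 above the mean of the other 5 sedentary arrays. Among the 11 arrays without exercised replicate 1, 7 of the 11 member probes were highest on sedentary replicate 6, namely those of Hspa1a, Dnajb1 and Hspb1, both of Hsp90aa1 and 2 of Hspa8, and 9.38% of all kept probes were highest there. Exercised replicate 2 held the highest Hsph1 and Chordc1 among these 11. The labels give the 2 arrays no handling that differs from the rest of their groups.

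Across the 11 arrays the other members followed Hspa1a to different degrees. These 7 correlations are a description, since the arrays share their normalization and the 2 groups are pooled. Dnajb1 followed it most closely, with Pearson's r of 0.90 and Spearman's rho of 0.75, and r was 0.73 without sedentary replicate 6 and exercised replicate 2, the arrays farthest from the median of Hspa1a. For Chordc1 r was 0.72 and rho 0.75, and r was 0.47 without those arrays. For Hsph1 r was 0.61 and rho 0.37, and r was 0.05 without them, so that relation rests on those 2 arrays. For Hspa8 r was 0.60 (0.28 without them) and for Hsp90aa1 0.52 (0.42). For Bag3 r was 0.27 and for Hspb1 0.16. Within the 7 arrays of low background r was 0.93 for Dnajb1, 0.84 for Chordc1, 0.79 for Hsp90aa1 and 0.63 for Hspa8. For Hsph1 it was 0.60, for Bag3 0.40 and for Hspb1 0.31. These 7 arrays still include sedentary replicate 6, and no value was taken among them without it. The 4 arrays of high background were too few for a value.

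Outside the members, the genes whose levels were most like Hspa1a over the 11 arrays, among 9835 compared, were Prpf3 (r = 0.94), which encodes a splicing factor, St8sia4 (0.90), a sialyltransferase, and Snx18 (0.89), a sorting nexin, followed by Ccdc117, Cdk19, Tmed8, Ndfip2, Sp100, Rbl1 and S100a16 (0.82 to 0.85). This ranking is a description. Among the 11 arrays Prpf3, St8sia4 and Snx18 were highest on sedentary replicate 6 and next on exercised replicate 2. Their r was not taken without those arrays. Most of the genes in this ranking did not stand out on exercised replicate 1. Prpf3 was 0.20 above and St8sia4 was -0.07 from the mean of the other arrays there, and Ndfip2 was -0.51 from it. Ccdc117 was 0.88 above, with a distance of 0.48 to the next array. Outside the members, the genes furthest above the mean of the other 11 arrays on replicate 1 were those of liver, all lower there than on the highest other array: Apoa2, Mup6, Mup2, Apoc4, Apoa1, Mup3, Serpina1a, Kng1, Ttr and Cyp2d9.

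Hspa1a and the liver transcripts had different orders of arrays. Exercised replicates 5 and 6 had higher hepatocyte marker means than replicate 1 (12.34 and 13.07, against 10.88), and their Hspa1a levels were 5.84 and 6.47, both below every sedentary array. Sedentary replicate 6, the second array for Hspa1a, had a hepatocyte mean of 6.33, near the bottom of the range. Exercised replicate 1 was high for both, and the part of liver RNA in its Hspa1a level was not tested. The red cell markers of replicate 1 averaged 11.53, against 10.77 to 11.25 on the other exercised and 10.89 to 12.18 on the sedentary arrays, and the macrophage markers ranged from 8.37 to 8.82 in exercised and from 8.78 to 9.45 in sedentary hearts.

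**Figure D4:**
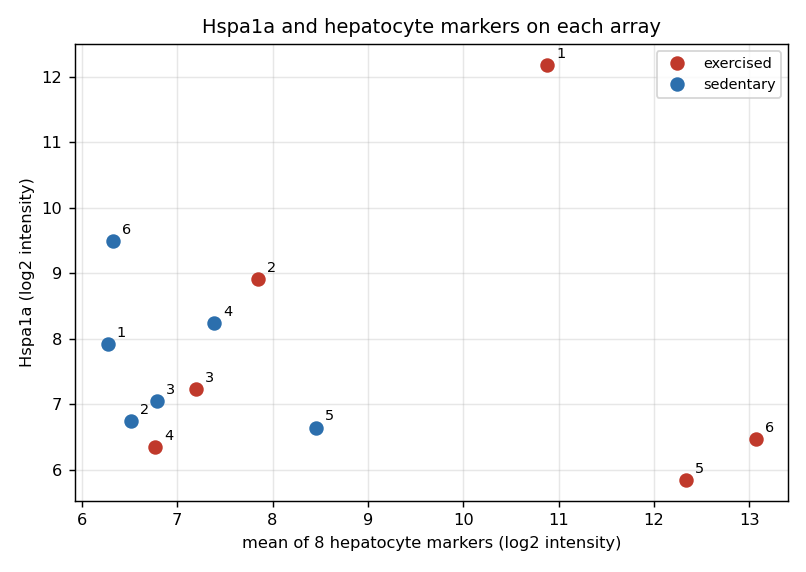
Log2 intensity of Hspa1a (vertical) against the mean of 8 hepatocyte markers (horizontal), each point 1 array with its replicate number, exercised in red and sedentary in blue. Exercised replicates 5 and 6 have the highest hepatocyte means and Hspa1a at 5.84 and 6.47, and exercised replicate 1 stands alone at 12.18.

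In the other chaperone and stress lists few genes differed between the groups or stood far out on exercised replicate 1. These 13 lists hold 157 genes, of which 132 were measured, and limma called 1 of them, Fos, lower in exercised hearts both over 12 arrays and without replicate 1. Of all 9843 genes, limma called 1 higher and 9 lower over 12 arrays, and 0 higher and 3 lower without replicate 1. Counts of calls depended on the settings, as given at the end, and 1 call is no result about these lists. By count, 18 of the 132 (13.6%) were highest on exercised replicate 1, against 516 of 9843 genes (5.24%) in all, and 2 lay more than 1 above the mean of the other arrays, Dedd2 and Ciart. Among 14 measured genes of Hsp90 and its cochaperones, 4 were highest on replicate 1 (Ahsa1, Cdc37, Stip1 and Fkbp4), and the median distance above the other arrays was 0.16. Stip1, which hands clients from Hsp70 to Hsp90, was at 11.11 on replicate 1, 10.33 to 10.95 on the other exercised and 10.40 to 10.78 on the sedentary arrays. Of 9 Hsp70 cochaperones, Bag6 and Sil1 were highest there, and Bag6 was at 9.54, against 8.87 to 9.33 on the other exercised and 8.77 to 9.16 on the sedentary arrays. Of 5 measured Hsp70 and Hsp110 relatives, only Hspa1l, a close relative best known from testis, was highest there, at 7.85, against 7.09 to 7.66 on the other exercised and 6.83 to 7.27 on the sedentary arrays.

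In the remaining chaperone lists and the proteasome list, few genes were highest on exercised replicate 1. In lists of this size the counts were close to the 5.24% of all genes. All 6 small heat shock proteins outside the members were measured and 0 were highest on replicate 1. Cryab, the lens and muscle crystallin that protects desmin, averaged 13.19 ± 0.20 in exercised hearts, against 13.20 ± 0.16 in sedentary hearts (log2 ± SD over 6 arrays each), and Hspb6 averaged 14.86 ± 0.06 in exercised and 14.82 ± 0.15 in sedentary hearts. Of 13 chaperonin and prefoldin genes 1 was highest on replicate 1, as was 1 of 11 mitochondrial chaperones and proteases and 1 of 11 J-domain proteins. Hspd1, the mitochondrial Hsp60, averaged 12.70 ± 0.32 in exercised and 12.55 ± 0.22 in sedentary hearts. Of 17 genes of endoplasmic reticulum chaperones and stress, 2 were highest on replicate 1, Ddit3 and Serpinh1. Hsp90b1, the Hsp90 of that compartment, averaged 11.99 ± 0.21 in exercised and 11.98 ± 0.17 in sedentary hearts. Of 13 proteasome genes, 1 was highest there.

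Of the regulators and related stress genes, single ones stood above the other arrays on exercised replicate 1. The list of heat shock factors and other targets had 9 of 14 genes measured, with a median difference of 0.09 over 12 arrays and 0.07 without replicate 1, against -0.04 over all genes in both. Hsf2 averaged 7.20 ± 0.21 in exercised hearts, against 7.29 ± 0.22 in sedentary hearts (log2 ± SD over 6 arrays each), and Hsf1 had no probe kept. Cirbp, a cold-inducible RNA-binding protein, was at 9.54 on exercised replicate 1, against 8.82 to 9.33 on the other exercised and 8.69 to 9.08 on the sedentary arrays. Without replicate 1 it differed by 0.19 (SE 0.12, adjusted p 0.4254 in limma). Srsf5, the other measured gene of the cold-inducible list, went the other way on replicate 1. It was at 10.41 there, against 10.68 to 11.37 on the other exercised and 10.45 to 11.11 on the sedentary arrays. The 13 immediate early genes had a median difference of -0.30 without replicate 1, and on replicate 1 their median was -0.16 from the mean of the other arrays. The 13 measured glucocorticoid and clock genes had a median of 0.03 without replicate 1.

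**Figure D5:**
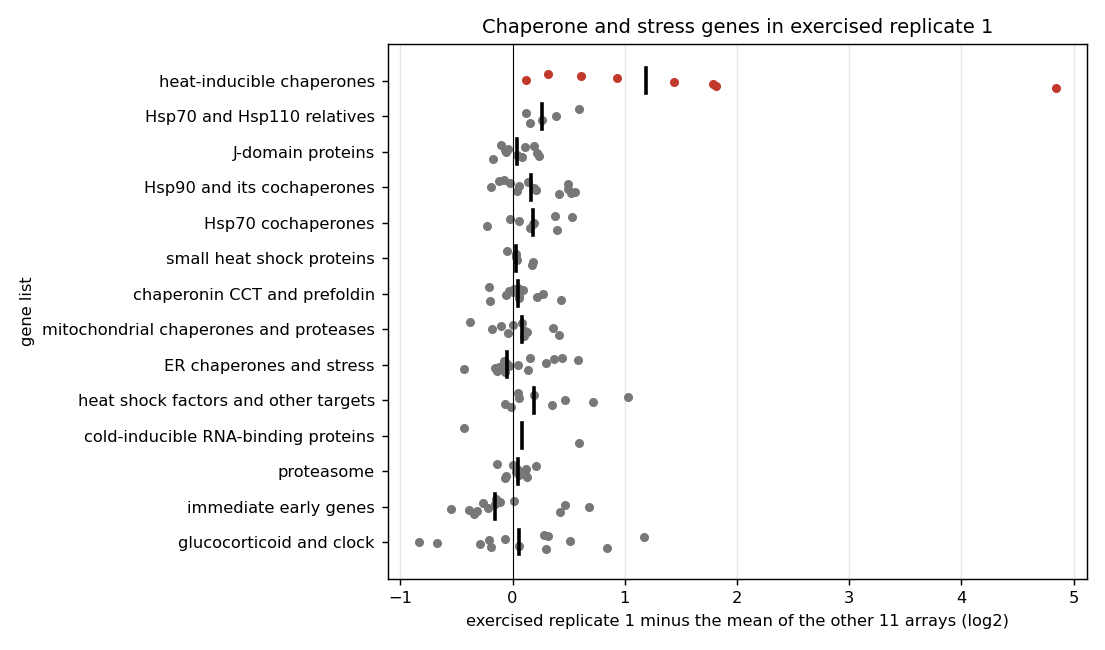
For each chaperone or stress list, the log2 distance of exercised replicate 1 from the mean of the other 11 arrays, 1 point per measured gene with the list's median. The members reach 4.84, while the medians of the other lists lie between -0.16 and 0.26.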

How the data were processed

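Biotin-labelled cRNA made from 12 total RNA samples of whole heart was measured on Illumina bead arrays. The authors deposited a bead intensity for each probe and array, not normalized, per the file headers, and with each intensity a p-value of detection, also stated in the deposited file's header. They also deposited processed values close to a log2 scale, which served as an alternative; lumi, with no version, is named in the submitters' processing notes. Intensities were corrected with limma's neqc (background from the detection p-values, offset 16) and quantile normalized. A probe was kept where its detection p was below 0.01 on 6 or more of the 12 arrays. Levels of different probes are not set against each other. Exercised minus sedentary was fitted on all 17098 kept probes in R 4.3.3 with limma 3.58.1 (eBayes with trend), calling Benjamini-Hochberg adjusted p-values under 0.05, over 12 arrays and without exercised replicate 1. Figures were drawn with matplotlib 3.10.9.

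Gene names came from the platform annotation, in which 34885 probes had 1 symbol, 18 several and 10378 none; the gene identifiers of all 10 members were found in RefSeq. For lists and likeness each of 9843 genes was represented by its kept probe of highest mean. The members and the gene lists were chosen with earlier results of these data known. Named genes were every member probe, up to 4 genes of highest mean in each of the other lists, Cirbp, Rbm3 (not measured), Hsf1 and Hsf2, the 10 genes most like Hspa1a over 11 arrays, and the 10 furthest above the mean of the other arrays on exercised replicate 1; the genes ranked by distance to the next array, and those counted as highest on replicate 1, were named after their values were seen. On simulated data with known changes among 17098 probes, the fit over 12 arrays recovered 86% of probes changed 2-fold, and the fit over 11 arrays 82%. For probes changed 1.5-fold these shares were 42% and 34%. The simulated noise was drawn separately for each probe, without differences shared by whole arrays, so real recovery may differ. Alternatives were other normalizations and filters, the deposited values, variance settings, array weights, blocks, covariates and leaving out arrays; leaving out exercised replicate 1 together with sedentary replicate 6 was chosen after seeing the data.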

Additional observations from a re-analysis of the deposited data

Results flagged for a closer look

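Of 70 groups of 6 arrays examined for a single array far from the rest of its group, 6 met Dixon's criterion, and about 1 in 20, or 3.5, would by chance. Hsph1 was at 12 on exercised replicate 1, against 10.06 to 10.70 on the other exercised arrays. Hsp90aa1 was at 10.44 on exercised replicate 1, against 8.42 to 9.09. These 2 values were among those that led to the choice of the genes, so they are a description and no test. The count of 6 includes them and the groups share arrays, so nothing is read from 6 against 3.5. The brightest Hspa8 probe was at 13.32 on exercised replicate 5, against 13.71 to 13.88, and the dimmest Hspa8 probe was at 12.68 on sedentary replicate 2, the only sedentary array of high background, against 10.42 to 11.03. The mean of the Hsp70 and Hsp110 relatives was 7.44 on sedentary replicate 2, against 7.67 to 7.80, and the mean of the proteasome genes was 11.52 on sedentary replicate 1, against 11.39 to 11.44. No part of background, depth or handling in these values was tested.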

How the results depend on the processing

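The number of called member probes without exercised replicate 1 was 0 in all 28 alternatives. The distance of Hspa1a on replicate 1 from the mean of the other arrays, 4.84, ranged from 4.02 (deposited values) to 5.05 over 20 alternatives. Of the 11 probes, 7 were highest on replicate 1 (12 of 19 with no filter, 7 to 8 on leaving out another array). That count was 6 with median scaling, 8 with cyclic loess and 9 within the arrays of low background. The median member difference of 0.12 was 0.45 with median scaling, where the median of all probes was 0.26, and from -0.20 (without exercised replicate 1) to 0.22 on leaving out 1 array. Counts over all probes depended on the settings. For the 15 calls over 12 arrays, the count was 0 with median scaling (673 probes at an unadjusted p under 0.05), 1 with cyclic loess, the deposited values, no filter, no trend, the liver mean as a covariate, without exercised replicates 1, 5 and 6, and without exercised replicate 1 and sedentary replicate 6; it was 25 for probes detected on all arrays, 37 with background as a block and 576 with array weights, and 1 to 266 on leaving out 1 array, the highest without sedentary replicate 2. For the 8 calls without exercised replicate 1, the count was 0 with median scaling (1830 at an unadjusted p under 0.05), 1 with cyclic loess, the deposited values, the liver mean, and the same sets of arrays left out; it was 2 with 1 probe per gene or background as a block, 3 with no filter, 4 within arrays of low background, 5 with no trend and 390 with array weights, and 1 to 339 on leaving out 1 more array, the highest without sedentary replicate 2. The cause was not tested. Same-numbered samples correlated over 0.1 in 3 of 6 pairs, and 2 of 6 samples correlated best with their own number. This does not settle whether the numbers pair the samples. With the replicate number as a block limma called 3 probes over 12 arrays (3220 at an unadjusted p under 0.05, against 2500 without the block). Without replicate 1 it called 0 (3862 at an unadjusted p under 0.05, against 2721 without the block). The median member difference over 12 arrays, 0.12, cannot move under this balanced block.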
